A study of Mus musculus with 24 samples.

Results

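The 38 genes described here encode the collagens, laminins, proteoglycans and other proteins of the liver's extracellular matrix, the enzymes that remodel it, and proteins that mark hepatic stellate cells. They were chosen by symbol, and all 38 were found among the 34945 named genes of the table. Expression is given as TPM, a relative abundance of transcripts corrected for their length, from polyadenylated RNA of whole mouse liver. Of the 38 genes, 27 had a mean of at least 1 TPM over all libraries and were tested, while the other 11, with means between 0.0644 and 0.981 TPM, were too low for the test.

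There were 24 libraries, 3 for each of 4 genotypes on each of 2 diets, which makes 8 groups. Mice were fed a high-fat diet (HFD) or a regular diet (RD) for 3 weeks, and all groups were fasted for 4 h. The knockouts were FoxO1-/- (LFKO), PPARα-/- (LPKO) and FoxO1-/-; PPARα-/- (LFPKO), and the reference genotype, called WT in the labels, was FoxO1lox/lox; PPARαlox/lox. The knockouts were made with an Albumin-Cre transgene, whose promoter is active in hepatocytes, so stellate cells are not the cells in which the deletion is driven. The labels do not say that each library came from a separate mouse, and the p-values therefore measure only the spread between these samples.

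Stellate cells lie between hepatocytes and the sinusoidal endothelium, where they store vitamin A as retinyl esters and are the main source of fibrous matrix in liver. In the quiescent state they express lecithin retinol acyltransferase (Lrat), reelin (Reln) and desmin (Des). After injury, transforming growth factor β and platelet-derived growth factor turn them into contractile myofibroblasts, which express smooth muscle actin (Acta2), the fibrillar collagens and the metalloproteinase inhibitor Timp1.

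Foxo1, the gene deleted in LFKO and LFPKO livers, was at 0.250 to 0.484 TPM in the 12 LFKO and LFPKO libraries and at 4.06 to 9.94 TPM in the other 12. Ppara was at 57.5 to 87.3 TPM in the 12 LPKO and LFPKO libraries and at 37.1 to 68.8 TPM in the other 12, so whole-gene TPM did not check the PPARα label. Transcripts of major urinary proteins, secreted by hepatocytes and encoded by the Mup genes, made up between 5.06% and 30.7% of a library. A large share of such transcripts lowers the TPM of all other genes, so comparisons are also given after median-of-ratios scaling, which centres the typical gene at no change, and after leaving out Mup and mitochondrial-genome (mt) transcripts.

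The matrix genes spanned more than 3 orders of magnitude in level. Col18a1, which encodes the basement membrane collagen whose fragment is endostatin and is known to be made by hepatocytes too, averaged 217 TPM over all libraries and ranged from 154 to 262 TPM. The small leucine-rich proteoglycans Dcn (decorin) and Bgn (biglycan) followed at means of 64.1 and 39.1 TPM, then the collagen-binding glycoprotein Sparc at 21.5 TPM and Reln at 12.4 TPM. The fibrillar collagens were low, with means over all libraries of 7.65 TPM for Col3a1, 2.49 TPM for Col1a2 and 1.48 TPM for Col1a1.

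Transcripts of genes listed as markers of both states of stellate cells were detected, and some of each were low. Of the quiescent markers, Lrat ranged from 0.969 to 3.55 TPM and Reln from 5.20 to 27.1 TPM over the 24 libraries, while Pdgfrb and Des averaged 1.32 and 0.981 TPM. Of the genes of activated cells, Vim, Col3a1 and Tagln averaged 8.98, 7.65 and 3.24 TPM. Acta2 ranged from 0.0868 to 1.71 TPM, Timp1 from 0 to 0.414 TPM and Lox, which crosslinks collagen, from 0 to 0.167 TPM. Acta2 and Tagln are also listed as vascular smooth muscle markers, so these levels do not show that activated stellate cells were present. In whole liver, fewer cells of a type and less RNA per cell cannot be told apart.

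**Figure D1:**
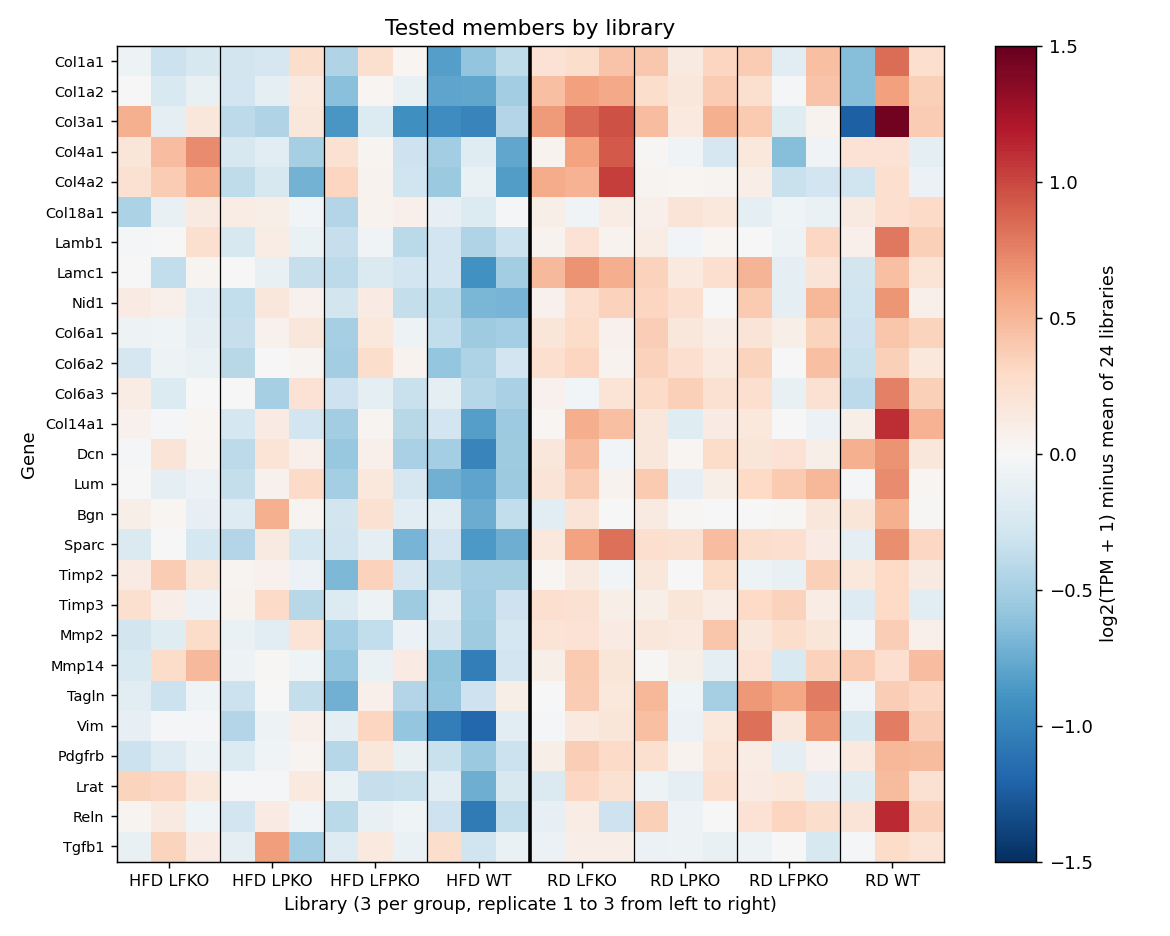
Level of the 27 tested matrix and stellate genes (rows) in each of the 24 libraries (columns, 3 per group in replicate order), coloured by log2(TPM + 1) minus the gene's mean over all libraries. The HFD WT columns are the bluest block, and RD WT replicate 2 holds the deepest red cells.

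The group with the lowest mean was HFD WT for 33 of the 38 genes, and for 24 of the 27 tested genes. HFD WT libraries also held the lowest single library for 20 of the 27. The shares of all genes that were lowest in HFD WT were not counted, so these counts cannot be called particular to the matrix genes. Against RD WT, 89.2% of all tested genes had a log2 fold change below 0 in HFD WT. At the other end, RD WT had the highest mean for 15 of the 38 genes, RD LFKO for 10 and RD LFPKO for 8. Summed over the 37 genes other than Col18a1, the level was 218 to 231 TPM in HFD LFKO, 173 to 244 TPM in HFD LPKO, 159 to 227 TPM in HFD LFPKO and 114 to 156 TPM in HFD WT libraries. On the regular diet it was 236 to 292 TPM in RD LFKO, 223 to 255 TPM in RD LPKO, 233 to 256 TPM in RD LFPKO and 241 to 358 TPM in RD WT libraries. By this sum the 3 HFD WT libraries were the 3 lowest of all 24. With Col18a1 included, HFD LFPKO replicate 1, at 318 TPM, was below HFD WT replicates 1 and 3, at 353 and 361 TPM.

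**Figure D2:**
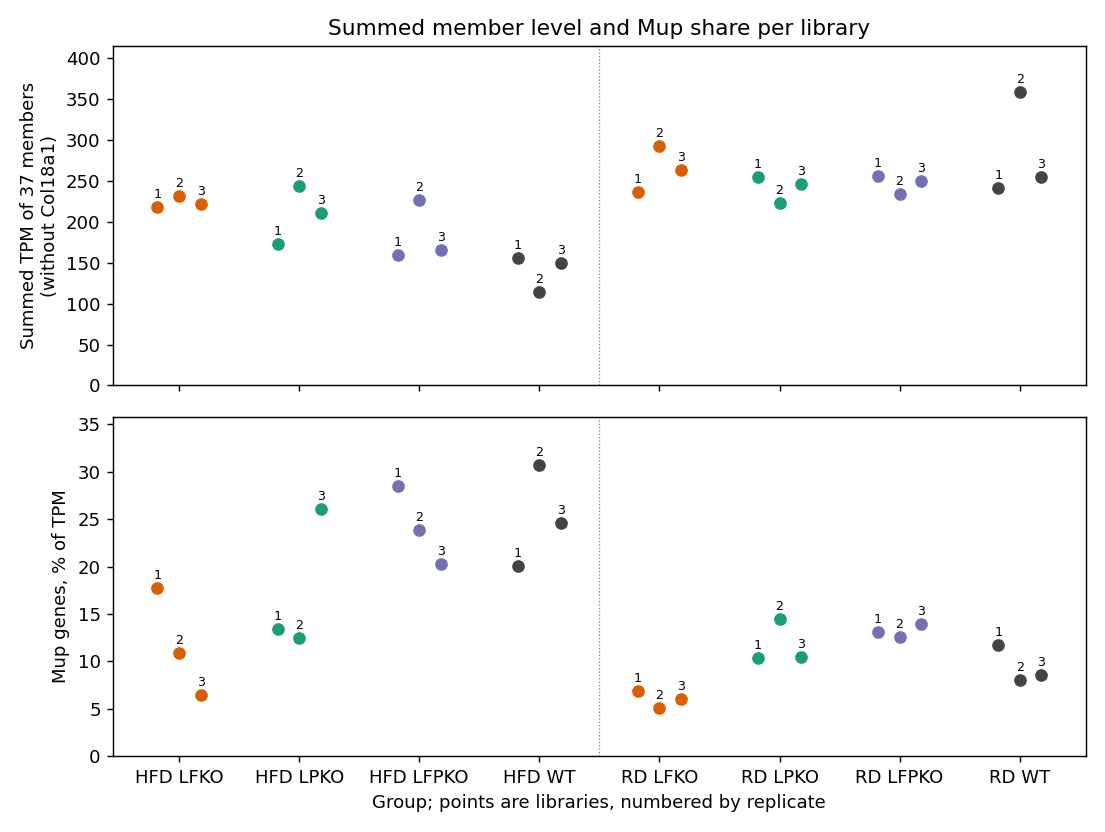
Summed TPM of the 37 genes without Col18a1 (upper panel) and Mup transcripts as a percentage of all TPM (lower panel), 1 point per library numbered by replicate, by group. HFD WT libraries have sums of 114 to 156 TPM and Mup shares of 20.1% to 30.7%, against 241 to 358 TPM and 7.99% to 11.7% in RD WT libraries.

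Mup shares moved with this order, but not in every group. They were 20.1% to 30.7% in HFD WT and 20.2% to 28.5% in HFD LFPKO libraries. The matrix sums without Col18a1 were 114 to 156 TPM in HFD WT and 159 to 227 TPM in HFD LFPKO libraries. With Col18a1 the sums of these groups overlapped, at 301 to 361 TPM in HFD WT and 318 to 449 TPM in HFD LFPKO libraries. In HFD LFKO the share was 6.50% to 17.7%, in HFD LPKO 12.5% to 26.1%, and in RD WT 7.99% to 11.7%.

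The high-fat diet was first compared with the regular diet in WT livers. Levels fell in HFD WT for 20 of the 27 tested genes and rose for 0, at an adjusted p under 0.05 by limma. Among all 10551 tested genes, 29.8% were lower and 1.05% were higher. The median log2 fold change was -0.70 over the 27 genes and -0.29 over all genes, and it was below 0 for 27 of the 27 and for 89.2% of all genes. The TPM of the 3 HFD WT libraries lay wholly below those of the 3 RD WT libraries for 16 of the 27 genes, as it did for 46.4% of all genes. After median-of-ratios scaling the median over all genes was -0.002 and that of the 27 genes was -0.47, with 7 genes lower and 4.09% of all genes lower. Without Mup and mt transcripts, 31 of the 38 genes passed the level filter, their median was -0.50 against 0.01 over all genes, and 7 were lower. The share of all genes lower in that fit is not given, so this count is not weighed against all genes.

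The same 7 genes were lower with TPM as deposited and after both rescalings, namely Col14a1, Dcn, Lamb1, Lum, Mmp14, Pdgfrb and Reln. They also stayed past the threshold when any of the 6 libraries was left out, as did Sparc and Timp2. Without both RD WT replicate 2 and HFD WT replicate 2, which were the highest library for 14 and the lowest for 14 of the 27 genes, the call held for Dcn and Mmp14 alone. The count of 20 was 9 without HFD WT replicate 2, 10 without RD WT replicate 2 and 13 without RD WT replicate 3.

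Dcn binds collagen fibrils and growth factors. It was at 43.2, 30.8 and 42.7 TPM in HFD WT livers, against 89.9, 99.5 and 69.6 TPM in RD WT livers. All 3 HFD WT values lay below all 3 RD WT values. The log2 fold change was -1.13 ± 0.19 (SE, n = 3 per group, limma adjusted p = 0.000521), and -0.80 after scaling (adjusted p = 0.0130).

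Lum (lumican), which lies next to Dcn on chromosome 10 with 0 protein-coding genes between them, was at 1.60, 1.48 and 1.93 TPM in HFD WT, against 3.22, 6.02 and 3.37 TPM in RD WT livers. Its groups did not overlap, and the log2 fold change was -0.93 ± 0.20 (limma adjusted p = 0.00343; after scaling -0.69, adjusted p = 0.0416). Bgn and Sparc fell as well, by 0.67 and 0.92 on the log2 scale, with adjusted p of 0.0118 and 0.00471 from limma, but neither passed after scaling. All 4 tested proteoglycan and glycoprotein genes were therefore lower in HFD WT livers with TPM as deposited.

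Reln, a secreted glycoprotein that quiescent stellate cells express in liver, was at 9.46, 5.20 and 8.99 TPM in HFD WT, against 13.8, 27.1 and 15.4 TPM in RD WT livers. The groups did not overlap, but replicate 2 was the highest library in RD WT and the lowest in HFD WT. The log2 fold change was -1.13 ± 0.21 (limma adjusted p = 0.00153; after scaling -0.82, adjusted p = 0.0148). Pdgfrb, the platelet-derived growth factor receptor of stellate cells and pericytes, was at 0.810, 0.547 and 0.822 TPM in HFD WT, against 1.52, 2.23 and 2.16 TPM in RD WT livers. Its log2 fold change was -0.78 ± 0.15 (limma adjusted p = 0.00168; after scaling -0.61, adjusted p = 0.00670). Lrat, which esterifies retinol for storage, fell by 0.56 ± 0.18 (log2; limma adjusted p = 0.0264), but its groups overlapped and it did not pass after scaling (adjusted p = 0.269).

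Mmp14, the membrane-anchored metalloproteinase that activates pro-Mmp2, was at 5.47, 3.81 and 7.08 TPM in HFD WT, against 11.9, 10.7 and 12.6 TPM in RD WT livers. The lowest RD WT library was above the highest HFD WT library, and the log2 fold change was -1.01 ± 0.20 (limma adjusted p = 0.00232; after scaling -0.71, adjusted p = 0.0106). Timp2, a metalloproteinase inhibitor that also takes part in that activation, was at 2.29, 2.13 and 2.13 TPM in HFD WT, against 3.95, 4.46 and 3.86 TPM in RD WT livers. Its log2 fold change was -0.68 ± 0.18 (limma adjusted p = 0.0103), and -0.43 after scaling (adjusted p = 0.127). Mmp2, which degrades type IV collagen and gelatin, fell by 0.49 ± 0.16 (log2; limma adjusted p = 0.0260), while the matrix-bound inhibitor Timp3 had a log2 fold change of -0.31 ± 0.17 (adjusted p = 0.144).

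**Figure D3:**
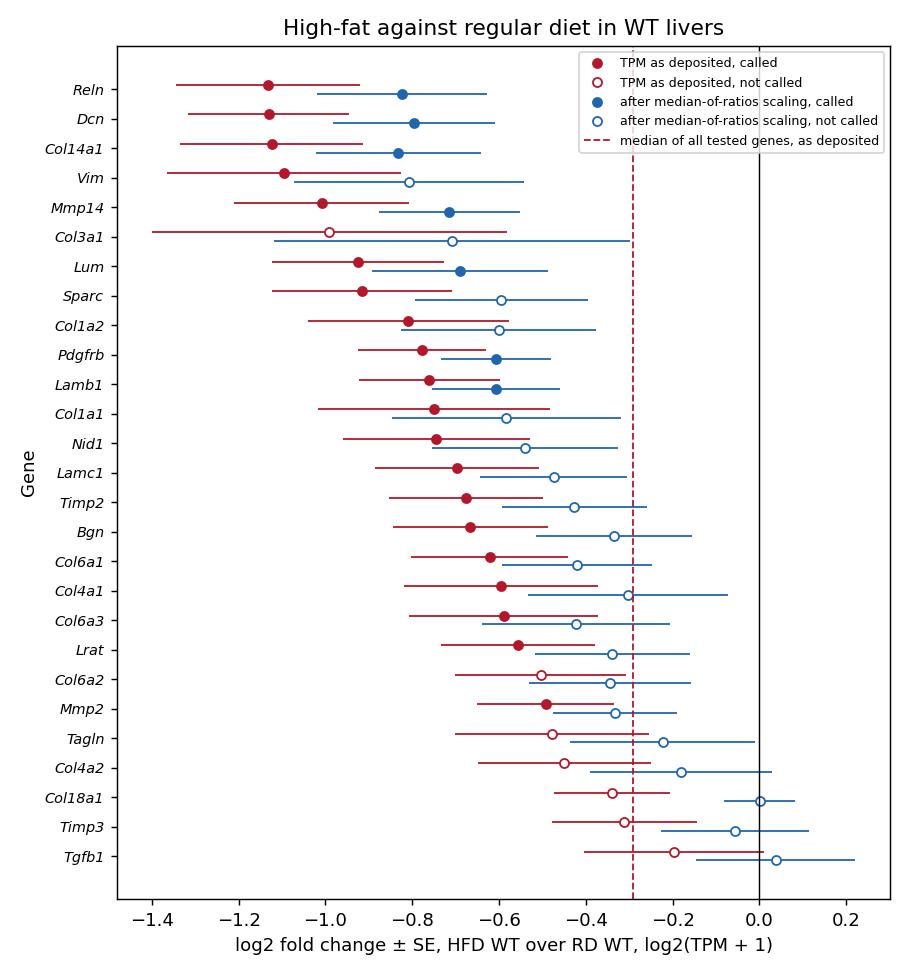
Log2 fold change ± SE of HFD WT over RD WT for the 27 tested genes (rows), with TPM as deposited (red) and after median-of-ratios scaling (blue); filled points passed a limma adjusted p of 0.05. Red points run from -1.13 to -0.20 with the median of all genes at -0.29 (dashed line), and the 7 filled blue points are Col14a1, Dcn, Lamb1, Lum, Mmp14, Pdgfrb and Reln.

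Col14a1, a collagen that sits on the surface of fibrils, was at 5.79, 3.66 and 4.68 TPM in HFD WT, against 7.82, 16.8 and 10.8 TPM in RD WT livers. Its log2 fold change was -1.12 ± 0.21 (limma adjusted p = 0.00153; after scaling -0.83, adjusted p = 0.0111). Col6a1 and Col6a3, chains of the beaded type VI collagen, fell by 0.62 and 0.59 (log2; limma adjusted p = 0.0174 and 0.0464). The third chain, Col6a2, was at -0.50 ± 0.20 (adjusted p = 0.0561). None of the 3 type VI chains passed after scaling, where the lowest adjusted p of the 3 was 0.147.

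The RD WT libraries differed widely in the fibrillar collagens. Col3a1 was at 3.07, 2.89 and 4.71 TPM in HFD WT, against 2.32, 20.1 and 9.13 TPM in RD WT livers. The lowest of these 6 values was a regular-diet library, and the log2 fold change of -0.99 ± 0.41 did not pass (limma adjusted p = 0.0679). Col1a1 and Col1a2 fell by 0.75 ± 0.27 and 0.81 ± 0.23 (limma adjusted p = 0.0403 and 0.0160), with overlapping groups. Without RD WT replicate 1 their adjusted p was 0.00278 and 0.00047, and without RD WT replicate 2 it was 0.243 and 0.0967.

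Among basement membrane genes, the laminin chain Lamb1 was at 0.636, 0.455 and 0.598 TPM in HFD WT, against 1.09, 2.45 and 1.56 TPM in RD WT livers. The groups did not overlap, and the log2 fold change was -0.76 ± 0.16 (limma adjusted p = 0.00340; after scaling -0.61, adjusted p = 0.0159). The laminin chain Lamc1, the laminin-binding Nid1 and the collagen chain Col4a1 fell by 0.70, 0.74 and 0.60 (limma adjusted p = 0.0120, 0.0169 and 0.0492), none of them after scaling. Col18a1 was at 198, 186 and 211 TPM in HFD WT, against 236, 256 and 262 TPM in RD WT livers, a log2 fold change of -0.34 ± 0.13 (adjusted p = 0.0574). After scaling that difference was 0.00 ± 0.08.

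The intermediate filament gene Vim fell by 1.10 ± 0.27 (log2; limma adjusted p = 0.00750), but HFD WT replicate 3, at 7.49 TPM, was above RD WT replicate 1, at 7.10 TPM. The actin-binding Tagln was at -0.48 ± 0.22 (adjusted p = 0.101). Tgfb1, the ligand that drives stellate cell activation, was at 2.83, 1.58 and 1.96 TPM in HFD WT, against 2.14, 2.85 and 2.66 TPM in RD WT livers. Its log2 fold change of -0.20 ± 0.21 did not pass (adjusted p = 0.443) and was 0.04 after scaling.

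Of the 11 genes below the level filter, all 11 had a log2 fold change under 0 in HFD WT when no filter was used, and 7 passed a limma adjusted p of 0.05 in that fit, where 11.7% of all 21814 genes were lower. They were Des, Pdgfra, Col5a1, Lox, Fbn1, Lama2 and Eln. Des, an intermediate filament protein of stellate cells, was at 0.568, 0.617 and 0.690 TPM in HFD WT, against 1.02, 1.73 and 1.60 TPM in RD WT livers. Pdgfra, a receptor of fibroblasts and portal mesenchyme, was at 0.473, 0.410 and 0.484 TPM in HFD WT, against 1.14, 1.01 and 0.682 TPM in RD WT livers. For neither gene did the groups overlap. Acta2, the myofibroblast marker, was at 0.368, 0.705 and 0.466 TPM in HFD WT, against 0.390, 1.03 and 1.35 TPM in RD WT livers (adjusted p = 0.419 in that fit).

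**Figure D4:**
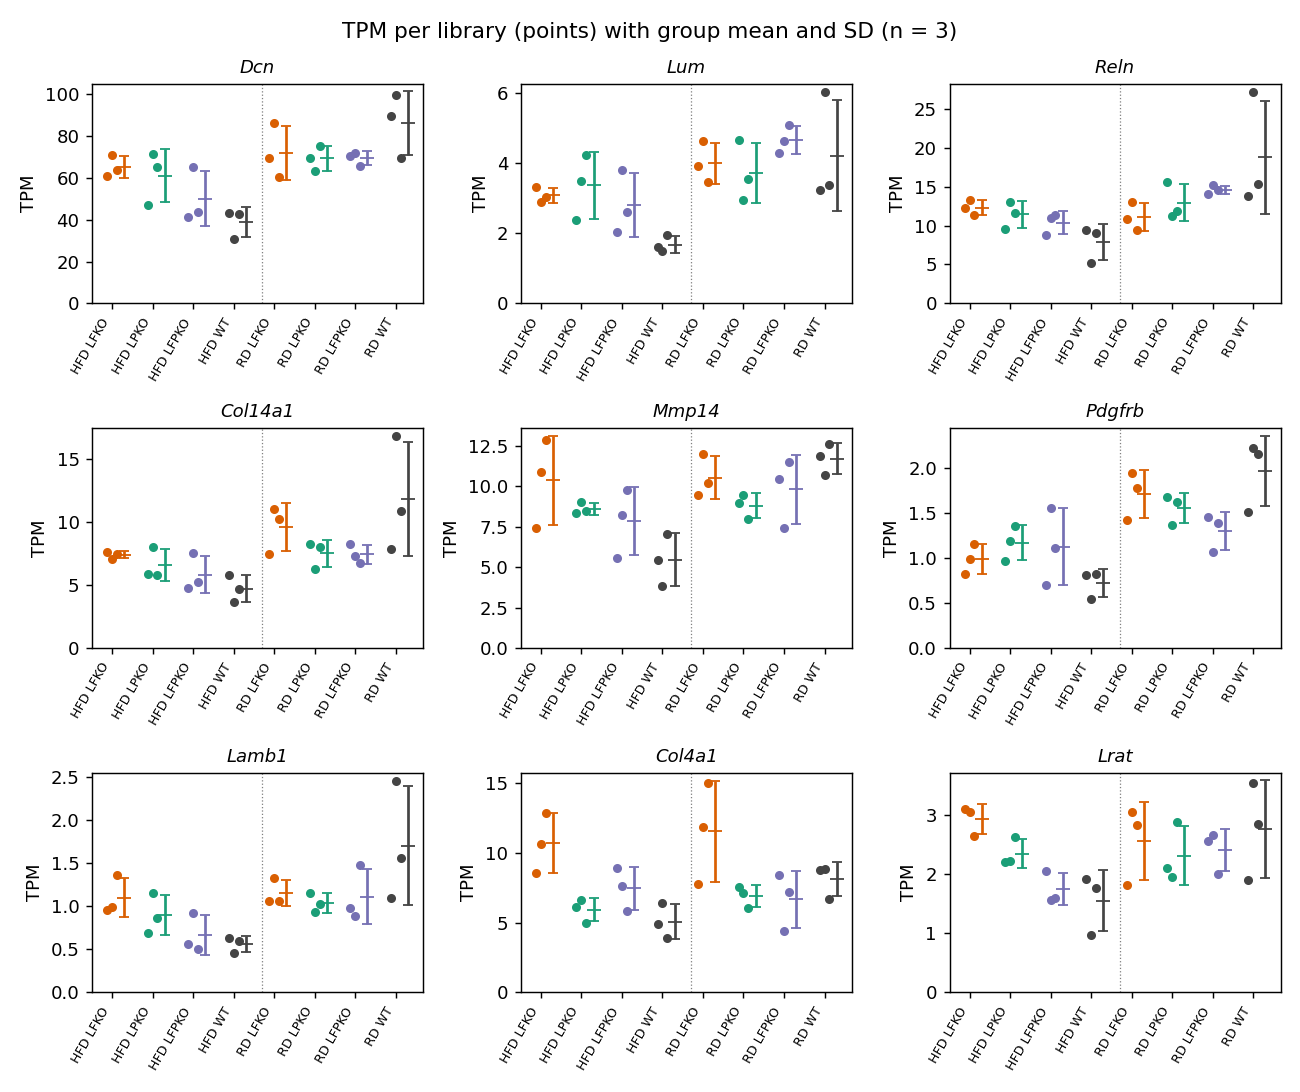
TPM of 9 genes in every library (points), with group means and SD (bars, n = 3), the 4 HFD groups left of the 4 RD groups. In each of Dcn, Lum, Reln, Col14a1, Mmp14, Pdgfrb and Lamb1 the 3 HFD WT points lie below the 3 RD WT points, and for Col4a1 and Lrat the HFD LFKO points lie above HFD WT.

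Other genes of stellate cells and matrix were examined in lists drawn up alongside the 38. Of 14 tested markers of quiescent stellate cells, 10 fell in HFD WT livers and 0 rose, with a median log2 fold change of -0.65. Of all genes, 29.8% were lower and 1.05% were higher, and the share lower after scaling is given above. The 10 markers included the collectin Colec11, at 9.37 TPM in HFD WT and 19.9 TPM in RD WT livers on average (-1.01 ± 0.17, limma adjusted p = 0.000707) and the secreted matrix protein gene Ecm1 (-0.93 ± 0.18, adjusted p = 0.00202). After scaling 6 of the 14 were lower, and 1, the metalloreductase gene Steap4, named after its values were seen, was higher at 0.88 (adjusted p = 0.0489). Ecm1 and Steap4 averaged 74.7 and 62.6 TPM over all libraries, against 2.33 TPM for Lrat. Which cells the transcripts of Ecm1 and Steap4 came from was not tested. Reln, Lrat, Pdgfrb and Des are in both lists, so the counts are not independent.

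In the lists that follow, counts with TPM as deposited stand beside 29.8% of all genes lower and 1.05% higher. Counts after scaling stand beside the share of all genes lower after scaling, given above for this comparison. The share of all genes higher after scaling is not given, so genes named as higher after scaling in this comparison are not weighed against all genes. Among 18 other matrix proteins, 10 fell and 0 rose, with a median of -0.59. The proteoglycan Prelp was at 7.73 TPM in HFD WT and 16.7 TPM in RD WT livers (-1.01 ± 0.15, limma adjusted p = 0.000231), and the basement membrane proteoglycan Hspg2 at 1.07 TPM in HFD WT and 3.12 TPM in RD WT livers (-0.98 ± 0.22, adjusted p = 0.0041). After scaling 4 of the 18 were lower, namely Prelp, Hspg2, Col5a3 and Emilin1, and 1 was higher, the fibronectin gene Fn1 (0.45, adjusted p = 0.0433), named after its values were seen. Of 11 enzymes that process or crosslink collagen, 4 fell, among them the procollagen C-proteinase enhancer Pcolce (-0.76 ± 0.18, adjusted p = 0.0066) and the proteinase Bmp1 (-0.52 ± 0.13, adjusted p = 0.00924); after scaling Pcolce alone was lower. In the transforming growth factor β pathway, 3 of 17 fell, namely Tgfbi, Ltbp4 and Eng, and 1 rose, the co-receptor gene Tgfbr3 (0.35, adjusted p = 0.0488). After scaling 1 of the 17 was lower, Tgfbi (-0.56), and 2 were higher, Tgfbr3 (0.59) and the receptor gene Tgfbr2 (0.68, adjusted p = 0.00916), the last named after its values were seen. Of 12 integrins and other matrix receptors, 6 fell and 0 rose, and after scaling 0 of the 12 passed in either direction.

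Markers of other liver cells were counted as well, beside 29.8% of all genes lower with TPM as deposited. The called share was below that for Kupffer, endothelial and portal fibroblast markers and above it for hepatocyte markers. Of 12 Kupffer cell markers 1 fell, Marco (-1.84 ± 0.45, limma adjusted p = 0.00706), and the median was -0.73, or -0.44 after scaling; the summed level was 86.0 to 194 TPM in HFD WT and 168 to 271 TPM in RD WT libraries. Of 12 sinusoidal endothelial markers 1 fell, Ptprb, with a median of -0.43, or -0.15 after scaling, and a summed level of 52.1 to 78.3 TPM in HFD WT and 74.4 to 99.8 TPM in RD WT libraries. Of 8 hepatocyte markers 5 fell, with a median of -0.54, or -0.20 after scaling. After scaling the hepatocyte marker Trf was lower (-0.31, limma adjusted p = 0.0416). Apoa1, named after its values were seen, was higher (0.55, adjusted p = 0.00823). Portal fibroblast markers summed to 4.42 to 5.96 TPM in HFD WT and 5.46 to 9.35 TPM in RD WT libraries, and 0 of the 3 tested passed. What part these lists had in the change of the matrix genes was not tested.

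Each knockout was then compared with WT on the high-fat diet, where all 3 comparisons share the HFD WT libraries. In HFD LFKO livers 7 of the 27 genes rose and 0 fell, against 12.7% of all genes higher and 0.730% lower. The median log2 fold change was 0.47 for the 27 genes and 0.21 for all genes, and 20 of the 27 had HFD LFKO libraries wholly above HFD WT libraries, as did 24.6% of all genes. The 7 were Col4a1, Col4a2, Mmp14, Dcn, Timp2, Lrat and Lum. After median-of-ratios scaling Mmp14 alone was higher (0.61 ± 0.16, limma adjusted p = 0.0357), with the 27-gene median at 0.33 and that of all genes at 0.00, where 2.55% of all genes were higher. Without Mup and mt transcripts 0 were higher and Col18a1 was lower (-0.32 ± 0.08, adjusted p = 0.0360), and the shares of all genes called in that fit are not given. None of the 7 stayed past the threshold in all 6 fits with a library left out, and the count was 0 without HFD LFKO replicate 3, 1 without HFD LFKO replicate 2 and 2 without HFD WT replicate 2.

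The largest called differences were in the 2 chains of type IV collagen, which form the network of basement membranes. Col4a1 was at 8.54, 10.6 and 12.8 TPM in HFD LFKO, against 4.87, 6.41 and 3.93 TPM in HFD WT livers. Col4a2 was at 5.47, 6.18 and 7.08 TPM in HFD LFKO, against 2.76, 4.15 and 2.10 TPM in HFD WT livers. For both, each HFD LFKO library was above each HFD WT library, and the log2 fold changes were 0.95 ± 0.22 and 0.88 ± 0.20 (limma adjusted p = 0.0124 and 0.0105).

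The pair lies head to head on chromosome 8, and their annotated genes overlap by 85 bases, so it is shown here as 2 promoters that face each other. Each window runs from 250 bases before to 50 bases after a start in RefSeq (GRCm38.p6), 5′ to 3′ on the gene's own strand, at chr8:11312777-11313076 for Col4a1 (minus strand) and chr8:11312555-11312854 for Col4a2 (plus strand). The start used for Col4a1 lies inside the annotated gene, whose 5′ end is at 11312889. Capitals mark the 78 bases that lie in both windows, chr8:11312777-11312854, which read as reverse complements of each other.
Col4a1: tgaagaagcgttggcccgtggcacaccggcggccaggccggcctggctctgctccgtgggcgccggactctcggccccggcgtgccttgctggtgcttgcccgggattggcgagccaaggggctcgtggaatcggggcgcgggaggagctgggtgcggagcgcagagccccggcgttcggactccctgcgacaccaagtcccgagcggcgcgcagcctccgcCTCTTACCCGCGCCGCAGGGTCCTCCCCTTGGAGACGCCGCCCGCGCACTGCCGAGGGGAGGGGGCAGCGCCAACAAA
Col4a2: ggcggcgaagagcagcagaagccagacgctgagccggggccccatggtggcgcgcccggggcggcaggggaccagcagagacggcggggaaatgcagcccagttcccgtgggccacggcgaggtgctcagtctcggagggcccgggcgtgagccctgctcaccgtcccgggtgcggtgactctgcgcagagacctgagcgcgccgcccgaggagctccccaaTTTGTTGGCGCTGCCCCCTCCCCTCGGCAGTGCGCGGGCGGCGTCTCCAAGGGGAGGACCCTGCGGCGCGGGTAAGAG

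Neither gene passed in the other knockouts on this diet. Col4a1 was at 6.13, 6.59 and 4.99 TPM in HFD LPKO and 8.87, 7.65 and 5.81 TPM in HFD LFPKO livers, and both groups overlapped HFD WT. In RD LFKO livers Col4a1 was at 7.74, 11.8 and 15 TPM, against 8.78, 8.84 and 6.68 TPM in RD WT livers, and Col4a2 was at 7.14, 6.96 and 10.4 TPM, against 3.48, 5.56 and 4.20 TPM. The RD LFKO libraries lay wholly above RD WT for Col4a2 and not for Col4a1, and the log2 fold changes were 0.76 ± 0.20 for Col4a2 and 0.43 ± 0.22 for Col4a1 (limma adjusted p = 0.0587 and 0.374).

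Mmp14 was at 7.41, 10.9 and 12.8 TPM in HFD LFKO, against 5.47, 3.81 and 7.08 TPM in HFD WT livers, a log2 fold change of 0.82 ± 0.20 (limma adjusted p = 0.0148). Dcn was at 60.8, 71.0 and 63.8 TPM in HFD LFKO, against 43.2, 30.8 and 42.7 TPM in HFD WT livers (0.74 ± 0.19, adjusted p = 0.0159). Lrat was at 3.11, 3.05 and 2.65 TPM in HFD LFKO, against 1.93, 0.969 and 1.77 TPM in HFD WT livers (0.64 ± 0.18, adjusted p = 0.0245). In all 3 genes the groups were apart. Timp2 and Lum were higher by 0.70 ± 0.18 and 0.61 ± 0.20 (adjusted p = 0.0163 and 0.0468), and Reln did not pass at 0.62 ± 0.21 (adjusted p = 0.0567).

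The fibrillar collagens did not pass in this comparison. Col3a1 was at 10.2, 6.03 and 7.76 TPM in HFD LFKO, against 3.07, 2.89 and 4.71 TPM in HFD WT livers (0.98 ± 0.41, limma adjusted p = 0.109). Of the 14 tested quiescent stellate markers, 4 rose in HFD LFKO livers, namely Lrat, Ecm1 (0.72 ± 0.18, adjusted p = 0.0162), Colec11 (0.59 ± 0.17, adjusted p = 0.0302) and the globin gene Cygb (0.61 ± 0.19, adjusted p = 0.0434). None of the 14 passed after scaling. The summed level of the 17 listed markers was 215 to 216 TPM in HFD LFKO and 153 to 166 TPM in HFD WT libraries. That sum mainly reads Ecm1 and Steap4, with means of 74.7 and 62.6 TPM over all libraries, against 2.33 TPM for Lrat. Of 12 Kupffer and 12 endothelial markers 0 passed, with medians of 0.17 and 0.27. Of 8 hepatocyte markers 2 rose, Alb (0.99 ± 0.20, adjusted p = 0.00498; after scaling 0.75, adjusted p = 0.0077) and Trf (0.40 ± 0.11, adjusted p = 0.0242). Cholangiocyte markers summed to 50.6 to 65.4 TPM in HFD LFKO and 25.3 to 47.3 TPM in HFD WT libraries, and 0 of the 2 tested passed. That sum is nearly all Spp1, with a mean of 44.7 TPM over all libraries, while the next highest, Krt19, averaged 1.08 TPM. The part of these markers in the result was not tested.

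In HFD LPKO livers 0 of the 27 genes passed, against 4.73% of all genes in either direction. The log2 fold change was above 0 for 27 of the 27 and for 70.5% of all genes, with a median of 0.42 against 0.11 for all genes, and 15 of the 27 and 19.8% of all genes had an unadjusted limma p under 0.05. After median-of-ratios scaling 0 of the 27 passed and 24 were above 0, with a median of 0.35. HFD LPKO libraries lay wholly above HFD WT for 13 of the 27 genes, as for 16.3% of all genes. Those nearest the threshold were Lum (0.69 ± 0.20, adjusted p = 0.0508) and Dcn (0.63 ± 0.19, adjusted p = 0.0525), with Dcn at 46.9, 71.3 and 65.2 TPM in HFD LPKO livers. With a pseudocount of 0.1 Lum passed, and among genes of at least 5 TPM Dcn did. The basement membrane collagen Col15a1, from the list of other matrix proteins, rose by 0.87 ± 0.24 in HFD LPKO livers (limma adjusted p = 0.0353).

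In HFD LFPKO livers 0 of the 27 passed, against 3.09% of all genes, with a median of 0.29 against 0.07 for all genes. The libraries were wholly above HFD WT for 2 genes, Nid1 and Lum, as for 11.1% of all genes, and 5 of the 27 and 14.1% of all genes had an unadjusted limma p under 0.05. After scaling 0 of the 27 passed, with a median of 0.26. Lum was at 2.02, 3.79 and 2.60 TPM in HFD LFPKO livers. In the same comparison Col15a1 rose by 0.98 ± 0.24 (limma adjusted p = 0.0204), at 3.06 TPM in HFD LFPKO and 1.07 TPM in HFD WT livers on average.

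**Figure D5:**
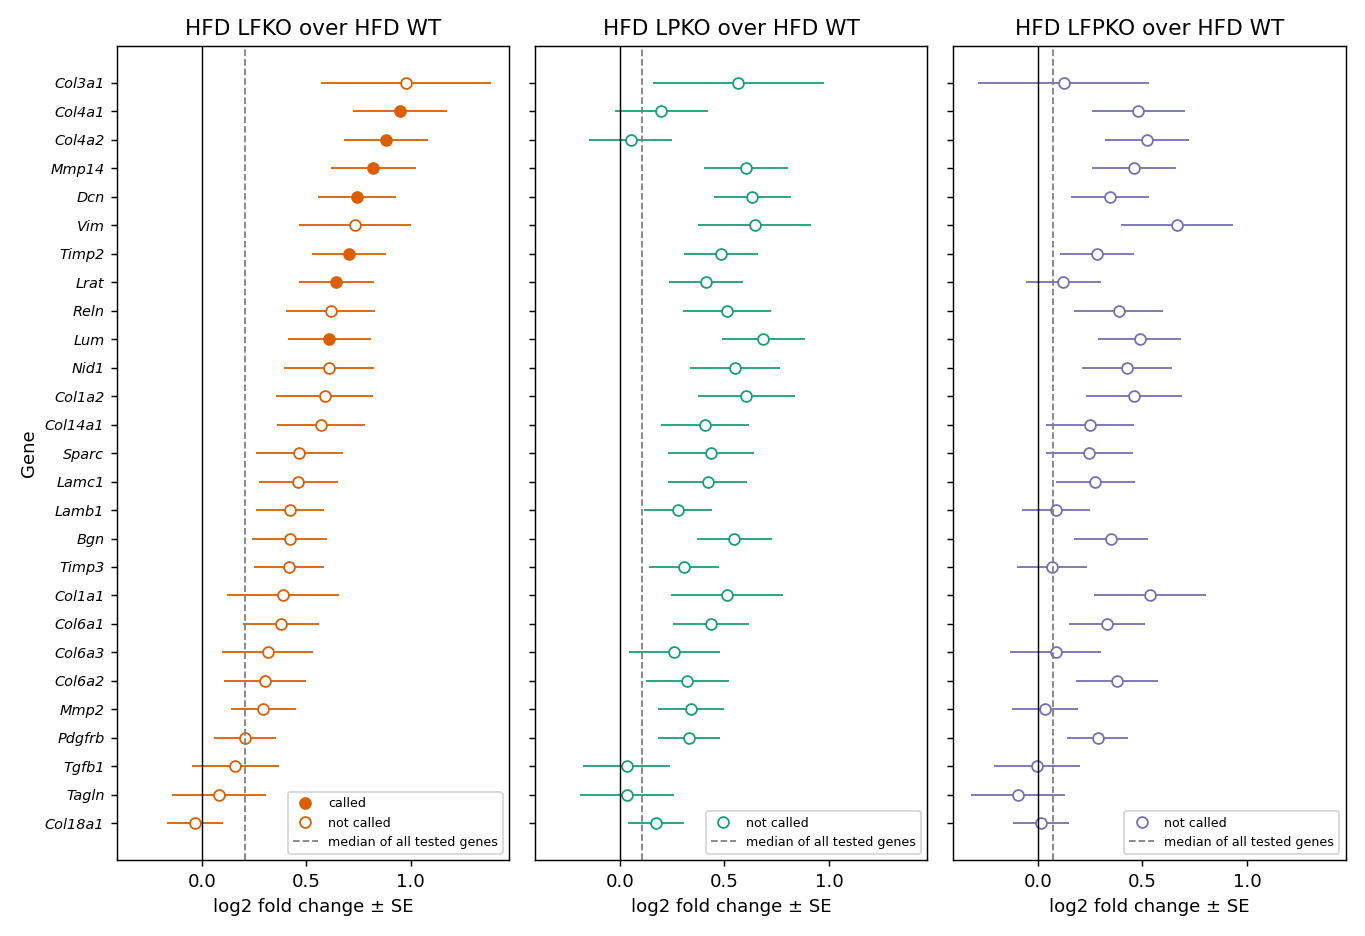
Log2 fold change ± SE over HFD WT of the 27 tested genes (rows) in HFD LFKO (left), HFD LPKO (middle) and HFD LFPKO (right), with TPM as deposited; filled points passed a limma adjusted p of 0.05 and the dashed line is the median of all tested genes. The 7 filled points are all in the left panel, and most points of each panel lie right of its dashed line at 0.21, 0.11 and 0.07.

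On the regular diet 0 of the 27 genes passed between a knockout and WT, by limma. Background shares of genes called in either direction were 1.67% for RD LFKO, 5.85% for RD LPKO and 7.45% for RD LFPKO. The 27-gene medians were -0.03, -0.08 and -0.11 in that order, against 0.03, 0.04 and 0.01 for all genes, and 3 genes had an unadjusted p under 0.05 in each comparison, where 15.5%, 18.8% and 21.8% of all genes did. Reln had the lowest log2 fold change in RD LFKO, at 10.8, 13.0 and 9.40 TPM, against 13.8, 27.1 and 15.4 TPM in RD WT livers. Its log2 fold change of -0.66 ± 0.21 did not pass (limma adjusted p = 0.126), but did at -0.80 without Mup and mt transcripts (adjusted p = 0.0428). Col18a1 was at 196, 206 and 201 TPM in RD LFPKO, against 236, 256 and 262 TPM in RD WT livers. That difference of -0.32 ± 0.13 had an adjusted p of 0.162, and of 0.0112 after scaling. Col14a1 passed, as lower, in RD LPKO and RD LFPKO when RD WT replicate 1 was left out.

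Some other genes of these pathways were called on the regular diet, some higher and some lower. As above, 1.67% of all genes were called in RD LFKO, 5.85% in RD LPKO and 7.45% in RD LFPKO. Tgfbr2, the type II receptor of transforming growth factor β, was at 12.2 ± 2.32 TPM in RD LPKO and 12.4 ± 1.53 TPM in RD LFPKO, against 5.52 ± 1.10 TPM in RD WT livers (SD, n = 3; limma adjusted p = 0.000411 and 0.000277). Pdgfa, which encodes a ligand of the Pdgfra receptor, was at 18.2 and 14.8 TPM in RD LPKO and RD LFPKO, against 4.18 TPM in RD WT livers on average (limma adjusted p = 0.00151 and 0.00392). The membrane metalloproteinase Mmp15 was at 36.2 and 33.1 TPM in RD LPKO and RD LFPKO, against 10.4 TPM in RD WT livers (limma adjusted p = 2.76e-05 and 4.59e-05). In RD LFKO livers the serpin gene Serpine2 was at 0.667 ± 0.0672 TPM, against 3.82 ± 0.598 TPM in RD WT livers (limma adjusted p = 0.00173). Col15a1 was at 3.92 ± 0.588 TPM in RD LFPKO, against 1.40 ± 0.672 TPM in RD WT livers (limma adjusted p = 0.00721). Lower in RD LFPKO were Prelp (-0.61 ± 0.15, limma adjusted p = 0.0151) and Bmp1 (-0.49 ± 0.13, adjusted p = 0.0279). Tgif1, of the transforming growth factor β list, was higher in RD LPKO with overlapping groups (0.89 ± 0.26, limma adjusted p = 0.0440). All 27 matrix genes stayed short of the threshold in the same fits.

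The diets were also compared within each knockout. In LFKO livers 2 of the 27 genes were lower on the high-fat diet and 0 higher, against 8.34% of all genes lower and 1.11% higher. Lamc1 was at 2.85, 1.96 and 2.93 TPM in HFD LFKO, against 4.36, 5.12 and 4.58 TPM in RD LFKO livers, a log2 fold change of -0.68 ± 0.19 (limma adjusted p = 0.0291). Sparc was at 17.4, 20.6 and 17.0 TPM in HFD LFKO, against 23.1, 31.7 and 37.3 TPM in RD LFKO livers (-0.69 ± 0.21, adjusted p = 0.0398). Leaving out HFD LFKO replicate 1 or 2, or RD LFKO replicate 2 or 3, left 0 genes past the threshold, and leaving out RD LFKO replicate 1 left 1. HFD LFKO libraries lay wholly below RD LFKO for 11 genes, as for 23.6% of all genes. The median was -0.21 for the 27 genes and -0.11 for all, and after scaling Lamc1 alone was lower, with a 27-gene median of -0.10.

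In LPKO livers 0 of the 27 passed, against 18.1% of all genes, with medians of -0.21 and -0.22 for the 27 and for all genes, and 3 of the 27 and 35.5% of all genes had an unadjusted limma p under 0.05. After scaling 0 passed and the 27-gene median was -0.02. HFD LPKO libraries lay wholly below RD LPKO for 7 of the 27, as for 39.8% of all genes. In LFPKO livers 5 were lower and 0 higher, against 24.9% and 1.35% of all genes, with medians of -0.35 and -0.23. HFD LFPKO libraries lay wholly below RD LFPKO for 10 genes, as for 38% of all genes.

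The 5 were Tagln, Lum, Sparc, Timp3 and Mmp2. Tagln encodes transgelin, an actin-binding protein of smooth muscle and myofibroblasts, and was at 1.48, 3.29 and 2.01 TPM in HFD LFPKO, against 5.42, 5.08 and 6 TPM in RD LFPKO livers. The groups were apart, and the log2 fold change was -1.03 ± 0.22 (limma adjusted p = 0.00263), or -0.83 after scaling and -0.87 with Mup and mt transcripts removed. It stayed past the threshold with any of the 6 libraries left out, while the count of 5 became 1 without HFD LFPKO replicate 1, 2 without HFD LFPKO replicate 3 or RD LFPKO replicate 1, 3 without RD LFPKO replicate 2 or 3, and 8 without HFD LFPKO replicate 2. Col18a1 was higher in HFD LFPKO after both rescalings, by 0.27 and 0.31, and showed a log2 fold change of -0.01 ± 0.13 with TPM as deposited.

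Whether a knockout's difference from WT depended on diet was tested directly, as the difference on the high-fat diet minus that on the regular diet. None of the 27 genes passed for LFKO, LPKO or LFPKO, against 0.00948%, 0.171% and 0.0284% of all genes called in either direction. The sign was above 0 for 27, 26 and 24 of the 27 genes, and for 77.1%, 62% and 59.4% of all genes. Medians were 0.36, 0.41 and 0.33, against 0.18, 0.07 and 0.05 for all genes, and 10, 10 and 8 of the 27 had an unadjusted limma p under 0.05, as did 12.2%, 8.08% and 7.54% of all genes. After scaling 0 passed, with 27-gene medians of 0.25, 0.37 and 0.31 and 23, 26 and 24 genes above 0. All 3 terms hold the same HFD WT and RD WT libraries. The largest was Reln for LFKO, at 1.28 ± 0.30 (adjusted p = 0.130). For that gene HFD LFKO libraries were above HFD WT at 12.3, 13.3 and 11.3 TPM, and RD LFKO libraries were below RD WT at 10.8, 13.0 and 9.40 TPM.

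Start sites were examined for motifs of the deleted factors and of promoters in general. RefSeq windows from 250 bases before to 50 bases after a start were found for 26 of the 38 genes and compared with all 32851 windows of the table, on both strands. For each of the 26 the first listed window was used. The forkhead motif GTAAACA, of the kind FoxO1 binds, was in 1 of the 26, Col6a1, and in 3.65% of all windows. The direct repeat of AGGTCA spaced by any 1 base, of the kind PPARα binds, was in 0 of the 26 and in 0.0396% of all. The letters TATAAA were in 2, Col3a1 and Vim, and in 13.6% of all.

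The GC box GGGCGG, a motif of Sp-family factors, was in 19 of the 26 windows and in 35.7% of all. Of the 7 genes that were lower in HFD WT livers with TPM as deposited and after both rescalings, 3 had a window in the table, Reln, Mmp14 and Lamb1, and all 3 held the motif. They are shown here with each GGGCGG, on either strand, in capitals. They lie at chr5:22344656-22344955 (minus strand), chr14:54431348-54431647 (plus strand) and chr12:31265043-31265342 (plus strand) of GRCm38.p6. The start used for Lamb1 lies inside the annotated gene, which begins at 31265146. Reln holds 6 copies, Mmp14 2 adjoining copies and Lamb1 2 copies, read on the opposite strand.
Reln: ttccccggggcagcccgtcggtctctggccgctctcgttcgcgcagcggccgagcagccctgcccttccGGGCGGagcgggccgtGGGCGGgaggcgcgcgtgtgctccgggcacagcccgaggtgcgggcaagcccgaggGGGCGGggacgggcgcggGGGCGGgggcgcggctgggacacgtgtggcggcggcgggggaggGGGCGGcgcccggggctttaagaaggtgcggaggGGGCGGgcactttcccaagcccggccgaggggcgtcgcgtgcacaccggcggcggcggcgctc
Mmp14: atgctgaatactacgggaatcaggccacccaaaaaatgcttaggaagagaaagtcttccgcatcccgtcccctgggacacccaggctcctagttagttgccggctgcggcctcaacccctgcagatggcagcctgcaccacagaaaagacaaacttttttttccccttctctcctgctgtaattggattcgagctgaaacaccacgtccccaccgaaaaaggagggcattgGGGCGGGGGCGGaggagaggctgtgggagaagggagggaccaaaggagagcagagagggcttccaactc
Lamb1: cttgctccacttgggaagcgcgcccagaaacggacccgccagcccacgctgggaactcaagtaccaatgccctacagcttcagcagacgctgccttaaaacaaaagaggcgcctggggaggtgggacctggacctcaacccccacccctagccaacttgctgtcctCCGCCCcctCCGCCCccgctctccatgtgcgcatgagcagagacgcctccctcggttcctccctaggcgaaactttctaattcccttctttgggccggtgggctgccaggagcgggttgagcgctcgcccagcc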

How the data were processed

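RNA from snap-frozen liver was extracted with Trizol and made into stranded mRNA libraries, per the labels' protocols. The deposited values are TPM per gene, which the authors made with kallisto on GRCm38 (also named mm10), per the submitters' processing notes; the sources used here do not give tool or annotation versions, age or sex. TPM keeps no depth, so the number of reads behind a value is unknown. A row without a gene name, at 0.0104% to 0.025% of a library, was left out. Values were analysed as log2(TPM + 1), a scale that understates the change of low genes.

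Genes with a mean of at least 1 TPM (10551) were fitted in R 4.3.3 by limma 3.58.1, which estimated a mean for each of the 8 groups with 16 residual degrees of freedom and a mean-dependent prior variance. The 13 two-sided comparisons were 6 of a knockout with WT on the same diet, 4 of the diets within a genotype and 3 differences of a knockout effect between diets. Benjamini-Hochberg adjustment ran over all tested genes within a comparison, and a gene was called at an adjusted p under 0.05. An exact permutation test of 3 libraries against 3 cannot go below p = 0.1, so none was used. Results were recomputed with a pseudocount of 0.1, without the level filter, and with a mean of at least 5 TPM; with median-of-ratios scaling or removal of Mup and mt transcripts; and with only the compared groups in the fit, the replicate number as a block or each library left out. The fit was tested on simulated data.

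All 38 genes could be named, and of every other list at most the 4 called genes with the smallest adjusted p. The members and lists were chosen with earlier results of these data known. Figures were drawn with matplotlib 3.10.9.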

Additional observations from a re-analysis of the deposited data

Results flagged for a closer look

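For 3 genes the knockout libraries lay wholly above WT on the high-fat diet and wholly below WT on the regular diet, while the test of that difference did not pass. On the high-fat diet alone, 24.6% of all genes lay wholly above WT in LFKO and 16.3% in LPKO. The share of all genes that crossed in this way was not counted, so the 3 cannot be called more than usual. Reln, for LFKO, had a difference between the diets of 1.28 (log2, limma adjusted p = 0.130). Timp2, for LFKO, had a difference of 0.86 (limma adjusted p = 0.229), with 3.84, 4.75 and 3.99 TPM in HFD LFKO, against 2.29, 2.13 and 2.13 TPM in HFD WT livers. On the regular diet it was at 3.51, 3.861 and 3.31 TPM in RD LFKO, against 3.95, 4.46 and 3.864 TPM in RD WT livers. Those 2 groups were thus barely apart, by 3.861 against 3.864 TPM. Mmp14, for LPKO, had a difference of 0.98 (limma adjusted p = 0.232), with 8.33, 9 and 8.46 TPM in HFD LPKO, against 5.47, 3.81 and 7.08 TPM in HFD WT, and 8.94, 9.49 and 8 TPM in RD LPKO, against 11.9, 10.7 and 12.6 TPM in RD WT livers. All 3 rest on the same 6 WT libraries.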

How the results depend on the processing

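Counts of matrix genes called varied with the processing. For HFD WT against RD WT the 20 became 7 after median-of-ratios scaling, 7 without Mup and mt transcripts, 8 among genes of at least 5 TPM, 12 with the compared groups alone and, in an alternative chosen after seeing the data, 2 without replicate 2 of both groups; with a library left out it was 9 to 22. For HFD LFKO against HFD WT the 7 became 1 after scaling, 1 (in the other direction) without Mup and mt transcripts, 4 at 5 TPM and 0 alone, or 0 to 7 with a library left out. For HFD LPKO against HFD WT the 0 became 1 with a pseudocount of 0.1 and 1 at 5 TPM, or 0 to 2. RD LFKO gave 1 without Mup and mt transcripts (0 to 0 with a library left out), RD LFPKO 1 after scaling and 1 without those transcripts (0 to 1), RD LPKO 0 to 1, and HFD LFPKO against HFD WT 0 to 0. For HFD LFKO against RD LFKO the 2 became 0 without a filter, 1 at 5 TPM, 1 after scaling, 1 alone and 0 without Mup and mt transcripts, or 0 to 2. For HFD LFPKO against RD LFPKO the 5 became 2 without a filter, 2 at 5 TPM, 2 after scaling, 2 with Mup and mt transcripts removed and 1 alone, or 1 to 8 with a library left out; under both rescalings the 2 were Tagln, lower, and Col18a1, higher. HFD LPKO against RD LPKO gave 0 to 1 with a library left out. The diet-dependent LFKO effect gave 0 to 1, and those of LPKO and LFPKO 0 to 0. The cause of these moves was not tested.

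Over the called genes, 441 recomputed log2 fold changes gave 257 still past the threshold, 184 in the same direction but short of it and 0 reversed. With the replicate number as a block, HFD LFKO against HFD WT gave 6 and HFD WT against RD WT 20, of which Col18a1 and Col6a2 took the place of Col4a1 and Col6a3, and no other count changed. Correlations of the deviations of same-numbered libraries ran from -0.23 to 0.233. In 9 of 30 cases a library correlated best with its own number. The 30 cases come from 10 comparisons that reuse the same 24 libraries. With 3 libraries per group, these values cannot tell whether equal numbers mark a shared origin, so no conclusion on pairing is drawn. Depth is unknown, so no counting error can be given for low genes.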
